A study of Mus musculus with 8 samples.

Results

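The genes described here encode the proteins of the cytosolic ribosome, the particle that translates messenger RNA. They were the protein_coding genes whose symbol in the authors' comparison table begins with Rpl or Rps followed by a digit or an a, together with Rplp0, Rplp1, Rplp2 and Fau, without pseudogene and related-sequence symbols and without the S6 kinases. This gave 87 genes of 55385 in the table, 52 for the large subunit and 35 for the small subunit. Rps19bp1 falls under the rule by its name, although it encodes a protein that binds the ribosomal protein S19 and is not part of the ribosome. The cells were NSPCs, neural stem and progenitor cells, which flow cytometry had sorted from the mouse cortex at postnatal day 7 right after dissociation. The 4 iKO libraries came from Nestin-CreERT2; Ash2l f/f; tdTomato mice and the 4 WT libraries from Nestin-CreERT2; tdTomato mice, so that both groups carried the Cre and the reporter. CreERT2 is active only with tamoxifen, and the Nestin promoter limits it to neural stem and progenitor cells and their kin. No source used here gives the day of tamoxifen or the number of animals behind a library, so the spread that the p-values rest on may be technical.

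Values are TPM, an abundance corrected for transcript length and scaled to a fixed total in each library, and the sequencing depth is unknown. The targeted gene Ash2l, a subunit of histone H3 lysine 4 methyltransferase complexes, was at 7.13 ± 0.714 TPM in iKO against 17.6 ± 1.33 TPM in WT (SD, n = 4 each). Both groups held the stem cell transcripts of the sort, and the summed level of 10 NSPC markers was 2140 to 2164 TPM over the iKO libraries and 1924 to 1937 TPM over the WT libraries. Other cell types differed between the groups. The summed level of 12 endothelial markers was 1085 to 1134 TPM over the iKO libraries and 609.9 to 637.4 TPM over the WT libraries, with 11 of 12 called higher and 0 lower. Erythroid markers summed to 720.6 to 840.5 TPM over the iKO libraries and 69.98 to 81.06 TPM over the WT libraries, with 5 of 5 tested markers called higher. Astrocyte markers summed to 4715 to 4908 TPM over the iKO libraries and 7345 to 7582 TPM over the WT libraries, with 9 of 10 called lower. Microglia markers summed to 252.3 to 270.8 TPM over the iKO libraries and 303.1 to 319.7 TPM over the WT libraries, with 6 of 9 called lower and 1 higher. Neuroblast markers summed to 2377 to 2454 TPM and 2274 to 2327 TPM, with 7 of 10 called higher and 3 lower. The Y-linked genes Ddx3y, Eif2s3y, Kdm5d and Uty summed to 53.9 to 73.36 TPM over the iKO libraries and 135 to 162.6 TPM over the WT libraries. The part of these differences in the values below was not tested. In such bulk libraries fewer cells of a type and less RNA per cell cannot be told apart.

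The ribosome is built from a small subunit, which holds the mRNA and reads its codons, and a large subunit, which joins amino acids and passes the growing chain through an exit tunnel. Nearly all ribosomal proteins are needed in equal numbers, and in dividing cells their genes are among the most strongly transcribed. Their mRNAs begin with a terminal oligopyrimidine (TOP) tract, a run of C and T bases at the cap through which mTORC1 and LARP1 control their translation. Ribosomal protein transcripts have also been copied back into the genome many times, so that most of these genes have processed pseudogenes with nearly the same sequence. Loss of 1 copy of some of them causes Diamond-Blackfan anaemia, and surplus Rpl5 and Rpl11 protein binds MDM2, the ligase that keeps p53 low.

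The listed start sites of 10 members are shown, in genes that fell and in genes that rose, for the runs of C and T around them. RefSeq start sites on GRCm38.p6 were matched for 67 of the 87 members, and each sequence runs 5′ to 3′ on the gene's strand from 15 bases before the start to 15 bases from it. Capitals mark the longest run of C and T of at least 8 bases. A run in this window need not begin at the start. That of Rpl19 ends before the start, and those of Rpl39 and Rpl18 begin after it. The capitals thus do not by themselves mark a TOP tract. Most of the 10 genes were chosen for having such a run, so its frequency among them is not a share of members. The 5 genes that fell are given first and the 5 that rose after them.
Rpl38, chr11:114668565-114668594, plus strand: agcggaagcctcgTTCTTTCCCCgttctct
Rpl19, chr11:98026909-98026938, plus strand: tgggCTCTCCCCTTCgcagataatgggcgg
Fau, chr19:6057932-6057961, plus strand: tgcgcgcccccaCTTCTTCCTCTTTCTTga
Rpl39, chrX:37085208-37085237, minus strand: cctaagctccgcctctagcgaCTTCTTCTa
Rps15, chr10:80292416-80292445, plus strand: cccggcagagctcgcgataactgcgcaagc
Rpl14, chr9:120571502-120571531, plus strand: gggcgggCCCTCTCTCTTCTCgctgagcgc
Rplp2, chr7:141447636-141447665, plus strand: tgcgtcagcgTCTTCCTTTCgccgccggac
Rpl15, chr14:18270972-18271001, minus strand: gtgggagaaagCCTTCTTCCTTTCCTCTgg
Rpl18, chr7:45718056-45718085, plus strand: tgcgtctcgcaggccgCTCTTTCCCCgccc
Rps3a1, chr3:86142654-86142683, minus strand: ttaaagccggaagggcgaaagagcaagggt

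A run of at least 8 pyrimidines stood in this 30-base window in 28 of the 67 members, or 41.8%, and in 13.9% of all 27025 genes of the promoter table. It was found in 11 of 16 members called lower and in 12 of 30 called higher, so members of both directions had it. Rps15, which fell, and Rps3a1, which rose, had no such run at the listed start. In the 300 bases from 250 before the start to 50 after it, CCGGAAG, the core of an ETS factor motif, was found on either strand in 38.8% of members and 9.93% of all genes. AAGATGG, the core of the YY1 motif, was found in 16.4% of members and 7.28% of all genes. GGGCGG, the GC box of Sp factors, was found in 62.7% of members and 38.2% of all genes, and TATAAA in 10.4% and 15.7%. These shares describe the letters of the windows and are not tests of any factor.

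Ribosomal protein genes moved in both directions in iKO, with many modestly higher and a smaller number lower by much more. A gene was called at a Benjamini-Hochberg adjusted p under 0.05 in limma's test on log2(TPM + 1), fitted over 16413 genes, and 84 of the 87 members passed its filter of 1 TPM in at least 4 libraries. Log2 fold changes below are iKO minus WT on that scale, on which low genes change less than on a scale without the added 1. Of the members tested, 42 were called higher and 20 lower. Of all genes tested, 20.7% were called higher and 31.9% lower, 52.6% in either direction. These shares of all genes are not matched to the members in coding length. Among other protein-coding genes under 300 nt, 40.8% were higher and 23.0% lower, and of 11 such members 0 and 5. From 300 to 450 nt these were 40.2% and 20.6%, and 17 and 7 of 31 members. From 450 to 600 nt they were 40.4% and 21.9%, and 10 and 4 of 19 members. From 600 nt on they were 19.3% and 34.9%, and 15 and 4 of 23 members. Over all genes, 39.3% of the calls were higher, a share that became 51.1% when libraries were rescaled by trimmed mean factors, with 45 members then higher and 17 lower. Of the 20 called lower, Rps6, Fau and Rpl34 turned higher when near-identical pseudogene copies were added. By more than 1 log2 unit, 10 members fell and 0 rose. Over all genes tested, 2.22% were called lower by more than 1 log2 unit and 1.19% higher. The summed level of all members was 1.76% to 1.79% of the TPM of an iKO library and 1.49% to 1.56% of a WT library. The 42 members called higher made up 1.40% to 1.42% in iKO and 1.05% to 1.10% in WT, and the 20 called lower 0.128% to 0.130% in iKO and 0.200% to 0.217% in WT. The members called lower had a median WT level of 36.9 TPM and those called higher one of 157.5 TPM.

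With a score of the Y-linked genes minus Xist as a covariate, the calls shrank to 6 members higher (among them Rpl14, Rps3, Rps3a1, Rps16 and Rps25) and 2 lower (Rpl19 and Rpl38). The loss was general, since 423 of all 16413 genes were then called, 195 higher and 228 lower, instead of 8629. The score lay between -0.82 and -0.26 in iKO and between 0.57 and 1.01 in WT, so that sex composition and genotype cannot be told apart.

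**Figure D1:**
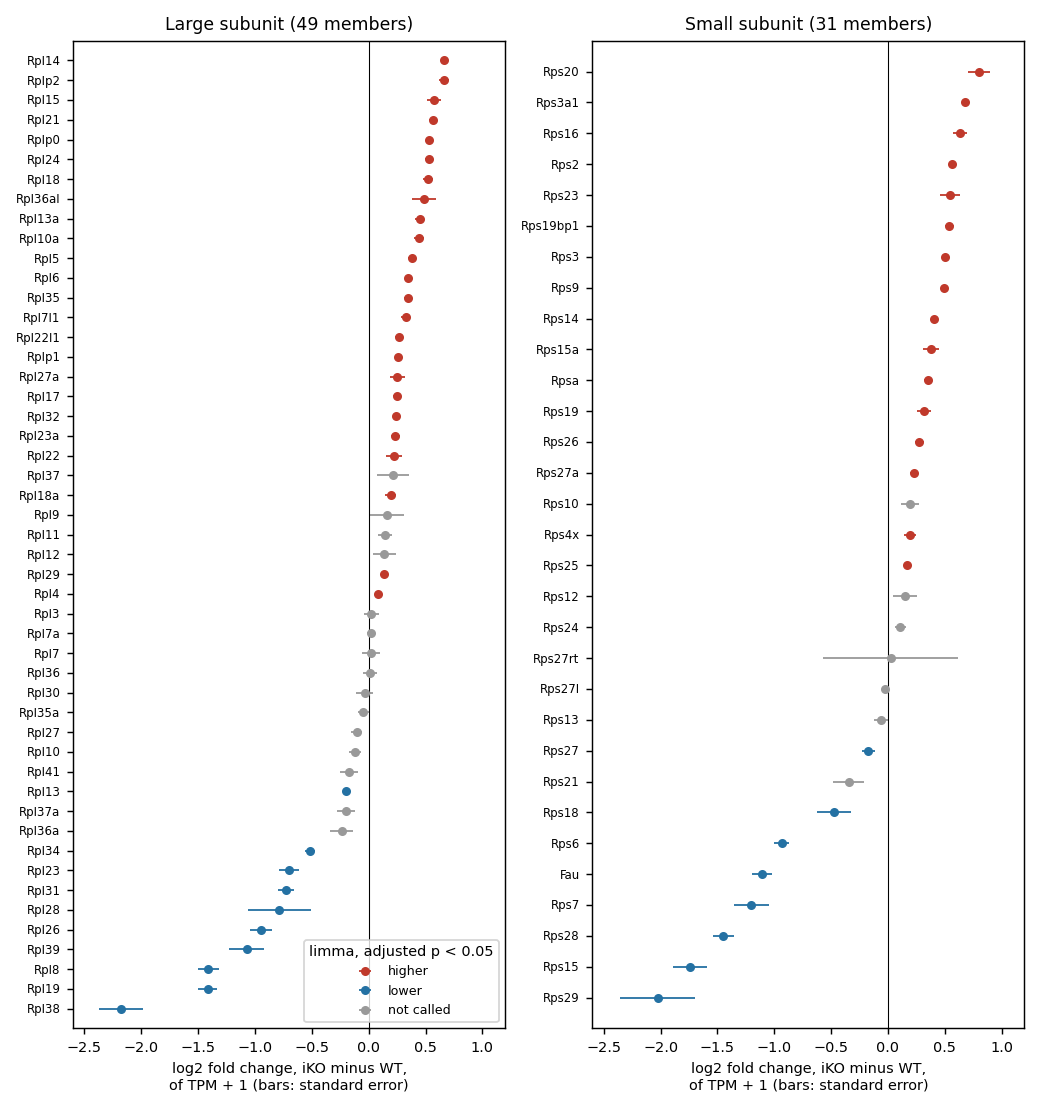
Log2 fold change (iKO minus WT, of TPM + 1) of tested members with their standard errors, for the large subunit (49 members, left) and 31 members of the small subunit (right), from 4 libraries a group. Red points were called higher and blue points lower by limma, grey points were not called, and the falls reach much further from 0 than the rises.

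In the large subunit, 24 of the 49 tested members were called higher, 10 lower and 15 were not called. The median log2 fold change was 0.14, the mean was -0.02, and the median over all genes tested was -0.06. The groups did not overlap in 24 members higher and 9 members lower in iKO, where 19.2% and 29.9% of all genes tested did not overlap in these directions. Leaving out single libraries gave 23 to 26 members higher and 9 to 13 lower. With the score of Y-linked genes as a covariate, 1 member of the large subunit was called higher and 2 lower.

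Rpl38 fell the most of all 84 members. It encodes a protein at the surface of the large subunit that is needed for the translation of a set of Hox mRNAs in the mouse embryo. In iKO replicates 1 to 4 it was at 9.53, 7.30, 5.73 and 4.81 TPM, and in WT replicates 1 to 4 at 43.6, 31.9, 32.3 and 28.4 TPM. The highest iKO library was far below the lowest WT library, and the mean was 4.98-fold lower in iKO. The log2 fold change was -2.18 with a standard error of 0.19 (limma, adjusted p = 2.05e-05).

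Rpl19, whose product lies near the tunnel exit and takes part in a bridge between the subunits, was at 21.3, 19.2, 18.9 and 16.3 TPM in iKO and 53.1, 48.7, 48.8 and 57.4 TPM in WT. Rpl8, which lies close to the peptidyl transferase centre, was at 14.0, 13.2, 14.3 and 12.5 TPM in iKO and 40.3, 33.2, 33.8 and 43.5 TPM in WT. The groups were well apart in both genes, and the log2 fold changes were -1.41 in each (limma, adjusted p = 1.89e-06 for Rpl19 and 2.93e-06 for Rpl8). Rpl39, a very small protein in the wall of the tunnel, was at 2.51, 2.25, 2.23 and 1.69 TPM in iKO and 7.91, 4.69, 4.79 and 5.58 TPM in WT. These low levels did not overlap, and the log2 fold change was -1.07 (limma, adjusted p = 0.000394). Rpl26, at the tunnel exit, fell by 0.95, from a WT mean of 38.6 ± 4.94 to an iKO mean of 19.4 ± 1.5 TPM (SD, n = 4 each).

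Rpl31, also at the exit, fell by 0.73 on the log2 scale and Rpl23, another MDM2-binding protein, by 0.70. Rpl31 was at 18.6 ± 2.05 TPM in iKO against 31.4 ± 0.72 TPM in WT (SD, n = 4 each), and Rpl23 at 25.9 ± 1.86 TPM (SD, n = 4) and 43.0 ± 5.71 TPM (SD, n = 4). Rpl28 was at 13.6, 5.07, 7.07 and 4.86 TPM in iKO and 13.3, 10.4, 16.1 and 12.2 TPM in WT. Its iKO replicate 1 lay within the WT range, and its call (log2 fold change -0.78, limma, adjusted p = 0.0393) was lost without any one of iKO replicates 2, 3 and 4 or WT replicates 1, 3 and 4, at an adjusted p of 0.0658 to 0.0971. The call was also lost with copies summed, with no filter, without the variance trend and with 2 other scalings, at an adjusted p of 0.0544 to 0.126. Rpl34 was lower with a log2 fold change of -0.52, and Rpl13 fell by 0.20 from a WT mean of 225.1 ± 8.85 to an iKO mean of 195.6 ± 3.43 TPM (SD, n = 4 each). The direction for Rpl34 turned when a near-identical copy was added, as described below.

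The rises of the large subunit were smaller and tighter. Rpl14 rose the most, with 461, 442, 453 and 435 TPM in iKO and 295, 284, 278 and 272 TPM in WT. Every iKO library was above every WT library, and the log2 fold change was 0.66 with a standard error of 0.03 (limma, adjusted p = 2.88e-07). Rplp2, an acidic protein of the stalk, was at 202, 214, 208 and 232 TPM in iKO and 137, 127, 138 and 137 TPM in WT. It did not overlap between the groups either and rose by 0.66 on the log2 scale. Rpl15 rose by 0.57 (365.3 ± 17.2 TPM in iKO against 245.7 ± 20.3 TPM in WT, SD, n = 4 each), Rpl21 by 0.56, Rpl24 by 0.53, Rpl18 by 0.52 and Rpl36al by 0.48. The rise of Rpl21, which has 62 pseudogene copies, was 0.33 with copies added. Rpl24, a bridge protein whose loss of 1 copy gives the Belly spot and tail mouse, was at 321.5 ± 10.9 TPM in iKO against 222.6 ± 6.25 TPM in WT (SD, n = 4 each).

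The 4 most abundant large subunit transcripts rose, though by different amounts. Rplp0, the base of the stalk, was at 1841, 1767, 1813 and 1837 TPM in iKO and 1326, 1217, 1239 and 1238 TPM in WT, a log2 fold change of 0.53 (limma, adjusted p = 7.06e-07). Rpl4, which reaches into the exit tunnel, was nearly as abundant as Rplp0 in WT but rose by only 0.08, from a WT mean of 1154 ± 13.2 to an iKO mean of 1223 ± 4.73 TPM (SD, n = 4 each). Rpl6 rose by 0.35 and Rpl32 by 0.24. The other 13 members called higher rose by 0.14 to 0.45.

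**Figure D2:**
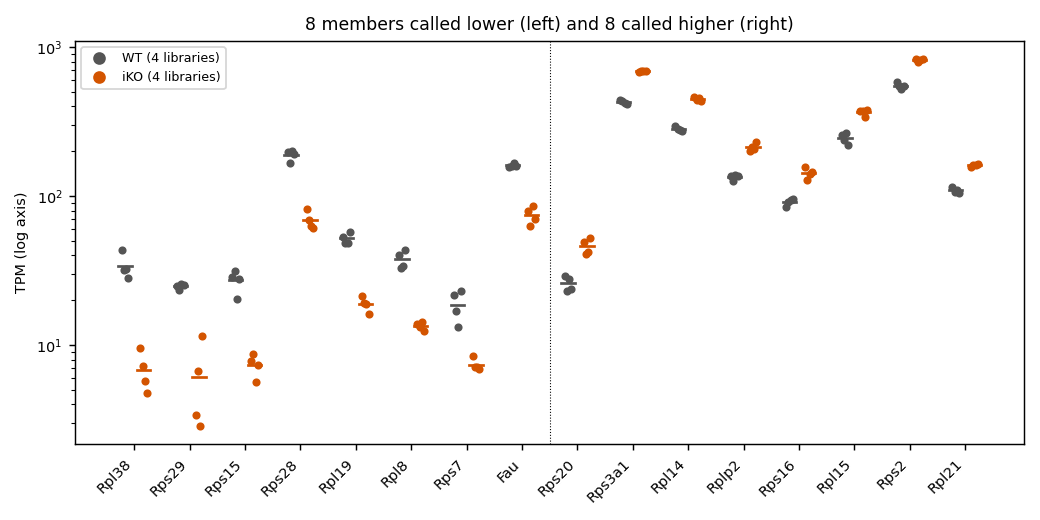
TPM on a log axis of 8 members with large falls (left of the dotted line) and 8 with large rises (right), with 1 point per library and a bar at the mean of 4 libraries for WT (grey) and iKO (orange). The groups did not overlap in any of these 16 genes, and all the falling genes other than Rps28 and Fau, which turned higher with its copy added, were at 57.4 TPM or less in every library.

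In the small subunit, all 35 members passed the filter, and 18 were called higher, 10 lower and 7 not at all. The median log2 fold change was 0.19, the mean was -0.07, and the median size of change regardless of direction was 0.40 against 0.22 for all genes tested and 0.26 for the large subunit. Groups did not overlap in 18 members higher and 7 lower in iKO. Of all genes tested, 19.2% and 29.9% did not overlap in these directions. Leaving out single libraries gave 18 to 19 members higher and 8 to 11 lower. With the score of Y-linked genes as a covariate, 5 were called higher and 0 lower.

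Rps29, a small zinc-binding protein of the head of the subunit, fell the most. It was at 3.40, 6.71, 2.86 and 11.5 TPM in iKO and 25.1, 23.4, 25.8 and 25.2 TPM in WT. The iKO libraries spread widely, yet the highest was below the lowest WT library (log2 fold change -2.03, SE 0.33, limma, adjusted p = 0.00082). Rps15, which lies near the decoding site, was at 7.85, 8.77, 5.66 and 7.36 TPM in iKO and 28.9, 31.6, 20.5 and 27.7 TPM in WT. The groups were apart and the log2 fold change was -1.74 (limma, adjusted p = 1.8e-05).

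Rps28, which lines the path where mRNA leaves the subunit, was the most abundant of the strongly falling members. It was at 82.1, 69.4, 62.6 and 61.4 TPM in iKO and 197, 167, 200 and 191 TPM in WT, a log2 fold change of -1.45 (limma, adjusted p = 3.52e-06). No iKO library came near the WT range, but the authors' deposited table gave Rps28 a smaller log2 fold change of -0.87. Rps7, an assembly protein that also binds MDM2, was at 8.45, 7.11, 7.17 and 6.89 TPM in iKO and 21.7, 16.9, 13.2 and 23.0 TPM in WT. It did not overlap between the groups and fell by 1.2.

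Fau and Rps6 were both called lower. Fau, which makes protein S30 fused to a ubiquitin-like protein, was at 79.6, 62.7, 86.4 and 69.8 TPM in iKO and 158, 160, 166 and 159 TPM in WT. Rps6, the target of the S6 kinases, was at 268, 245, 284 and 277 TPM in iKO and 494, 475, 516 and 573 TPM in WT. Their log2 fold changes were -1.11 and -0.94, and both turned positive once near-identical copies were added, as described below.

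Rps18 and Rps27 were called lower although their groups overlapped. Rps18 was at 29.9, 20.2, 21.8 and 33.0 TPM in iKO and 34.6, 32.6, 36.7 and 40.6 TPM in WT (log2 fold change -0.47, limma, adjusted p = 0.0271). Its call was lost without iKO replicate 2 or 3 or WT replicate 3 or 4, at an adjusted p of 0.056 to 0.0693, and with trimmed mean factors, at 0.0518. The authors' deposited table gave Rps18 an adjusted p of 0.165. Rps27 was at 329, 405, 343 and 347 TPM in iKO and 397, 383, 418 and 404 TPM in WT, with iKO replicate 2 inside the WT range. Its log2 fold change of -0.17 (limma, adjusted p = 0.0376) was not called without any one of 6 libraries, WT replicate 1, 3 or 4 or iKO replicate 1, 3 or 4, at an adjusted p of 0.0646 to 0.0922. The authors' deposited table gave Rps27 the opposite sign, 0.07, with an adjusted p of 0.505.

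Rps20 rose the most of all members, with 49.0, 40.8, 42.1 and 52.6 TPM in iKO and 29.3, 23.2, 27.7 and 24.0 TPM in WT. The groups did not overlap and the log2 fold change was 0.80 (limma, adjusted p = 0.000181), but it was 0.33 in the authors' deposited table. Rps3a1, among the proteins around the mRNA exit, had the smallest adjusted p of all members. It was at 684, 694, 689 and 688 TPM in iKO and 441, 438, 424 and 417 TPM in WT, a log2 fold change of 0.68 (limma, adjusted p = 2.77e-08).

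Rps16, whose tail reaches the peptidyl-tRNA, rose by 0.63 and was at 142.7 ± 11.7 TPM in iKO against 91.5 ± 4.72 TPM in WT (SD, n = 4 each). Rps2, at the mRNA entry, rose by 0.57, from a WT mean of 553.1 ± 24.8 to an iKO mean of 819.0 ± 16.1 TPM (SD, n = 4 each). Rps23, at the decoding centre, rose by 0.55, and Rps19bp1, the S19-binding protein that is not a ribosomal protein, by 0.54. Rps3, next to Rps2 at the entry, rose by 0.50, from a WT mean of 296.1 ± 3.39 to an iKO mean of 419.0 ± 6.67 TPM (SD, n = 4 each). Among the most abundant members, Rps9 rose by 0.49 from a WT mean of 782.2 ± 24.2 to an iKO mean of 1101 ± 21.7 TPM (SD, n = 4 each), and Rps14 by 0.40. Another 7 members called higher rose by 0.17 to 0.38.

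Members that sit together in the ribosome were next compared by their place in it. In the P stalk, which recruits the elongation factors, Rplp0, Rplp1 and Rplp2 rose by 0.53, 0.26 and 0.66. The fourth stalk member, Rpl12, was not called, with 24.5, 19.3, 22.1 and 26.1 TPM in iKO and 22.1, 21.8, 17.5 and 21.7 TPM in WT. Most of its signal lay on the identical copy Gm10275, at 109.6 TPM in iKO against 53.8 TPM in WT, and with copies added Rpl12 was at 132.8 against 74.8 TPM and was called higher by 0.82. Rplp1 was at 319.7 ± 3.10 TPM in iKO against 266.5 ± 6.93 TPM in WT (SD, n = 4 each). Of the pair that carries the 5S rRNA, Rpl5 rose by 0.38, from a WT mean of 167.8 ± 6.61 to an iKO mean of 218.2 ± 4.38 TPM (SD, n = 4 each). Rpl11 was at 166, 186, 167 and 189 TPM in iKO and 175, 161, 148 and 156 TPM in WT. Its groups overlapped, and its log2 fold change of 0.14 was not called (limma, adjusted p = 0.0754), though it was called without WT replicate 1 (0.19, adjusted p = 0.0237). With copies added Rpl11 was called higher by 0.65, so that all members of the stalk and of the 5S pair were then higher.

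The 9 proteins in and around the exit tunnel were all called, 5 higher and 4 lower. Rpl4, Rpl17, Rpl22, Rpl23a and Rpl35 rose, by 0.08 to 0.34, while Rpl39, Rpl19, Rpl26 and Rpl31 fell, by 0.73 to 1.41. The Rpl22 call was lost without WT replicate 2 or 4 (adjusted p 0.051 and 0.0554), and the authors' deposited table gave Rpl35 an adjusted p of 0.0582. Along the mRNA channel and decoding region, Rps2, Rps3, Rps23 and Rps26 rose, and Rps15 and Rps28 fell. The counts of these 2 groups were the same with copies added. The ubiquitin fusions also parted, since Rps27a, which makes S27a fused to ubiquitin, rose by 0.23, from a WT mean of 236.7 ± 7.76 to an iKO mean of 277.7 ± 13.4 TPM (SD, n = 4 each), while Fau was lower. This contrast was lost with copies added, where Rps27a was higher by 0.48 and Fau by 0.45.

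In a chosen list of 9 members linked to Diamond-Blackfan anaemia, 4 rose, 1 fell and 4 were not called. The list does not hold every member linked to the disease, so these counts are for the 9 only. Of all genes tested, 20.7% were called higher and 31.9% lower. Together these were 52.6%, about the share of the 9 that was called. Rps19, the gene most often mutated in that disease, rose by 0.32, from a WT mean of 160.0 ± 11.7 to an iKO mean of 199.7 ± 13.9 TPM (SD, n = 4 each). Rpl5 and Rps26 were also among those that rose, and Rps7 fell. Rpl11, Rpl35a, Rps10 and Rps24 were not called. The median log2 fold change of the 9 was 0.19, and with copies added 6 were called higher and 1 lower.

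Some ribosomal proteins have a divergent second gene, and some of these second genes are used in particular tissues. Rpl7l1, Rpl22l1 and Rpl36al rose, by 0.33, 0.27 and 0.48, and the rise of Rpl22l1 was 0.17 with copies added. Rps4l, which is not protein_coding in the authors' deposited table and so not a member, fell by 0.52, with 10.4 TPM in iKO against 15.3 TPM in WT (limma, adjusted p = 0.000291). Rpl22l1, which is known to be restrained by Rpl22 protein, was at 110.6 ± 1.87 TPM in iKO against 91.9 ± 4.48 TPM in WT (SD, n = 4 each). Rps27l, a p53-responsive relative of Rps27, was at 298.7 ± 9.73 TPM in iKO against 303.5 ± 6.97 TPM in WT (SD, n = 4 each) and was not called. Rps27rt, a relative of Rps27, had the largest standard error of any tested member, 0.59 on the log2 scale. It was at 71.8, 8.85, 71.3 and 44.4 TPM in iKO and 43.5, 25.5, 43.1 and 41.4 TPM in WT, with replicate 2 lowest in both groups. It was not called with all libraries, but without iKO replicate 2 its log2 fold change was 0.69 (limma, adjusted p = 0.0391). The testis and muscle paralogs were silent or nearly so. Rpl10l and Rpl39l were listed at 0 in all 8 libraries. Rpl3l was at 0.437 TPM in iKO replicate 1 and listed at 0 in the other 3 iKO libraries, and it was at 0.384, 0.711, 0.352 and 0.710 TPM in WT (exact two-sided permutation test, p = 0.0857, where the smallest p that 70 assignments allow is 0.0286).

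The values of several members could not be separated from those of their processed pseudogenes. Pseudogene transcripts with at least 95% identity over at least 50% of the shorter transcript were found for 81 members, 636 copies in all, and 116 copies reached 1 TPM in a group mean. Together the copies made up 0.509% to 0.523% of TPM in iKO and 0.277% to 0.311% in WT. The largest single copy, Rpl15-ps3, is identical to Rpl15 over 615 aligned bases and was listed at 1159 ± 12.7 TPM in iKO against 735.9 ± 32.0 TPM in WT (SD, n = 4 each), well above Rpl15 itself.

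The falls of Rps6, Fau and Rpl34 stood opposite rises of such a copy. Rps6-ps4, identical to Rps6 over 750 bases, was at 898, 889, 855 and 874 TPM in iKO and 301, 322, 261 and 218 TPM in WT. Gm9843, identical to Fau over 402 bases, was at 149.5, 168.8, 128.9 and 161.7 TPM in iKO, at 20.4 TPM in WT replicate 1 and listed at 0 in the other 3 WT libraries. Rpl34-ps1, with 2 mismatches to Rpl34 over 354 bases, was at 125.7 ± 21.6 TPM (SD, n = 4) in iKO, at 3.17 TPM in WT replicate 2 and listed at 0 in the other WT libraries. These copies were thus high in every iKO library and far lower or at 0 in WT. With all copies summed, Rps6 was at 1150 TPM in iKO against 793.1 TPM in WT, Fau at 226.8 and 166.1 TPM, and Rpl34 at 260.9 and 195.4 TPM. The log2 fold changes of these sums were 0.54, 0.45 and 0.41, higher in iKO.

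In other pairs the copy was at or near 0 in 1 of the groups. Gm8226, with 2 mismatches to Rpl7a, was at 117.1 ± 5.76 TPM in iKO against 0.899 ± 0.606 TPM in WT (SD, n = 4 each), while Rpl7a itself was at 301.1 and 297.2 TPM. Rps13-ps2, identical to Rps13 over 453 bases, was at 58.9, 87.2, 57.9 and 75.9 TPM in iKO and listed at 0 in every WT library. In the opposite direction, Gm8730, with 12 mismatches to Rplp0, was at 0.106 ± 0.136 TPM in iKO against 149.4 ± 4.82 TPM in WT (SD, n = 4 each). Rps3a2, with 4 mismatches to Rps3a1, was at 0.198 ± 0.165 TPM in iKO against 107.7 ± 1.71 TPM in WT (SD, n = 4 each). With copies summed, Rplp0 and Rps3a1 remained higher in iKO, but their log2 fold changes came down from 0.53 to 0.31 and from 0.68 to 0.27. Whether reads were placed differently between a gene and its copies in the 2 groups was not tested, since no reads were used.

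**Figure D3:**
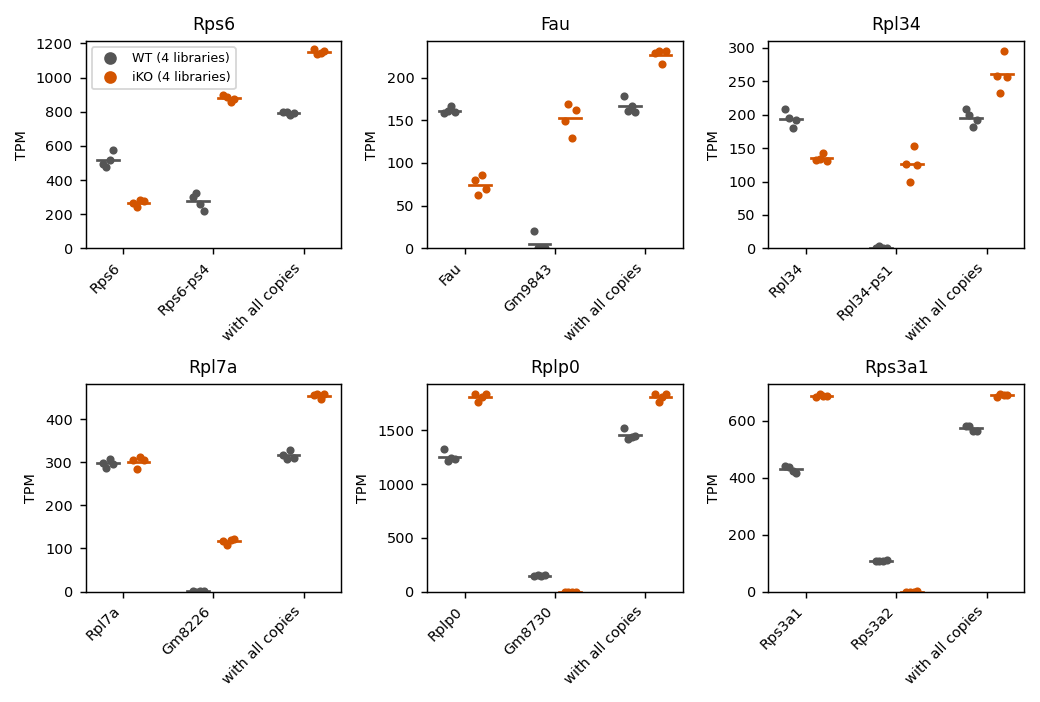
TPM of 6 members, of 1 near-identical pseudogene of each, and of the member with all its copies summed, with 1 point per library and a bar at the mean of 4 WT (grey) and 4 iKO (orange) libraries. In Rps6, Fau and Rpl34 the gene is lower and the copy higher in iKO, in Rplp0 and Rps3a1 the copy is near 0 in iKO, and all 6 sums are higher in iKO.

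Adding every copy to its gene raised the counts of members called higher from 24 to 30 in the large subunit and from 18 to 23 in the small subunit, and left 8 lower in each. The medians rose to 0.24 and 0.31. Rpl10, Rpl11, Rpl12, Rpl7a, Rpl9, Rps10, Rps12 and Rps13 were not called by themselves and were called higher with their copies. Rpl10, for example, was at 237.6 and 258.0 TPM alone in iKO and WT, and its identical copy Rpl10-ps1 at 699.1 and 408.0 TPM. The rises of Rpl17, Rpl27a and Rpl29 grew to 0.50, 0.57 and 0.65. Fau, Rps6 and Rpl34 turned as described, while several other falls had no copy signal. The copies of Rpl38, Rpl8, Rpl39, Rpl23, Rps29 and Rps15 were all listed at 0, and these genes stayed lower with the same fold changes. Rpl19, Rpl26, Rpl31, Rps28, Rps7 and Rps18 also remained called lower after summing.

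The authors' deposited table, made from the same libraries, gave fold changes for 85 members. At an adjusted p under 0.05, that authors' deposited table had 25 large subunit members higher and 10 lower, and 20 small subunit members higher and 7 lower. Over all genes in the authors' deposited table with a fold change, 17.1% were higher and 16.7% lower at this threshold, 33.9% together. Of the 42 members that limma called higher, 40 were higher and 0 lower in the authors' deposited table, and of the 20 called lower, 17 were lower and 0 higher. Of the 22 that limma did not call, 5 were higher and 0 lower there. Among these 5 were Rpl7, with a log2 fold change of 0.31 there against 0.02 in limma, and Rps27l, with 0.14 against -0.02. In the authors' deposited table Rpl38 had a log2 fold change of -2.24, Rps15 of -1.81, Rps29 of -1.69 and Rps3a1 of 0.78. The large falls rest on a low signal there. The mean normalized signal over all libraries was 15.8 for Rpl38, 37.2 for Rps15, 16.2 for Rps29 and 3993 for Rps3a1. Its median was 135 for the members called lower and 834 for those called higher.

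The members called lower were spread over coding lengths. Of 11 members with a coding sequence under 300 nt, 5 were lower and 0 higher, among them Rpl38, Rpl39, Rps28 and Rps29. The shortest of all, Rpl41 at 75 nt, was not called (log2 fold change -0.17, limma, adjusted p = 0.106). From 300 to 450 nt, 17 were higher and 7 lower, from 450 to 600 nt 10 and 4, and from 600 nt on 15 and 4. Other protein-coding genes with a coding sequence under 300 nt went the other way, with 40.8% of 304 higher and 23.0% lower. Rises also outnumbered falls among other genes of 300 to 450 nt, with 40.2% of 655 higher and 20.6% lower. From 450 to 600 nt these shares were 40.4% and 21.9% of 819 other genes. From 600 nt on, 19.3% of 11728 other genes were higher and 34.9% lower. By level, 6 of 11 members under 30 TPM in WT were lower and 1 was higher, and 2 of 11 members at 300 TPM or more were lower and 8 higher. Across the 84 tested members, Spearman's rho of the log2 fold change was 0.30 with coding length, 0.38 with WT level, -0.20 with the GC content of the transcript and -0.07 with the number of copies. Members are not independent of each other, and the WT level also enters the fold change.

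**Figure D4:**
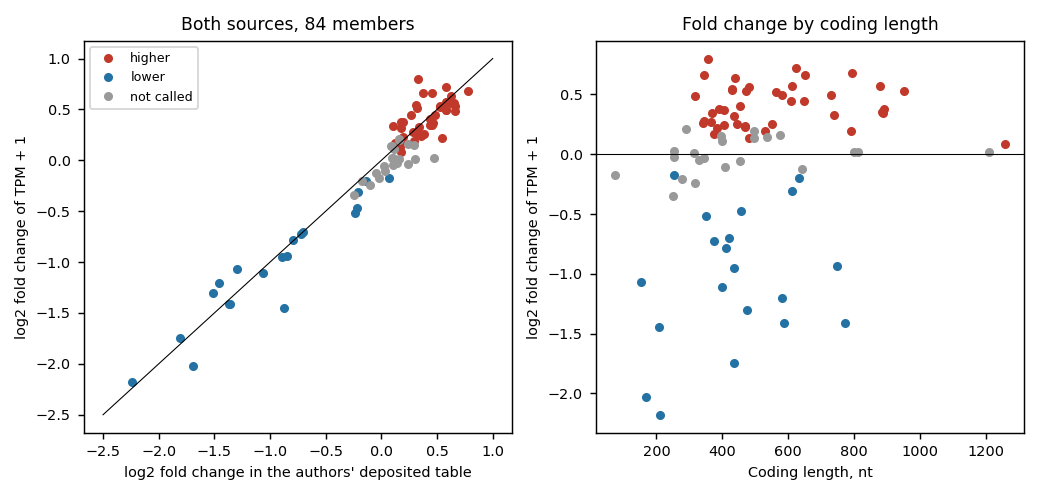
Log2 fold change of TPM + 1 (iKO minus WT) of 84 members against the log2 fold change in the authors' deposited table (left, with the line of equal values) and against coding length in nt (right), coloured by the limma call. Points lie near the line on the left, and on the right no member under 300 nt was called higher.

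The next counts are for transcripts that share the TOP tract or build the ribosome. Of all genes tested, 20.7% were called higher and 31.9% lower, shares that are not matched to these lists in coding length. Among 24 other genes with TOP mRNAs, 14 rose and 4 fell, with a median of 0.20. Eef1b2, an elongation factor subunit, rose by 0.57, Naca, which binds nascent chains, by 0.56, and Rack1, a small subunit protein not named Rps, by 0.49. Eif3k, a subunit of initiation factor eIF3, fell by 2.20, from a WT mean of 15.8 ± 2.76 to an iKO mean of 2.66 ± 0.602 TPM (SD, n = 4 each).

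Of 35 genes for rRNA processing and modification, 13 rose and 5 fell, about the share of calls among all genes. The H/ACA proteins Gar1, Nhp2 and Nop10, which guide pseudouridine formation, rose by 1.59, 0.77 and 0.76. Wdr75 fell by 0.87, but the authors' deposited table gave it a log2 fold change of only -0.12. Large subunit assembly factors numbered 10 higher and 6 lower of 28, with Rpf2, which brings the 5S particle, higher by 0.56. Of 9 chaperones dedicated to ribosomal proteins, 5 rose and 1 fell, and Tsr2, the chaperone of Rps26, rose by 0.36. RNA polymerase I and its factors had 5 of 15 tested higher and 2 lower, no larger a share of calls than among all genes. Of 19 MYC and mTORC1 genes, 2 rose and 9 fell, beside 20.7% and 31.9% of all genes tested. The list holds both activators and inhibitors of these pathways, so its counts give no direction of their activity. Among the genes named here, Mycn fell by 0.32, Mycl by 0.68 and Larp1, the TOP-binding protein, by 0.25. Myc itself was at 70.4 ± 2.28 TPM in iKO against 70.1 ± 1.90 TPM in WT (SD, n = 4 each). Of 7 genes of the p53 link, the p53 target Cdkn1a fell by 1.2, Sesn1 and Ccng1 also fell, Bax rose by 0.38, and Mdm2, Mdm4 and Trp53 were not called.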

How the data were processed

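RNA of 4 iKO and 4 WT libraries had been amplified by Smart-Seq2, a full-length method, per the labels' protocols. The authors deposited TPM per gene, and each library summed to 1000000 over 55385 genes. The authors' comparison, whose headings per the file headers are those DESeq2 writes, holds a mean normalized signal, a log2 fold change, a test score and p-values. Aligner, quantifier and build: not given in the sources used here. All value columns were matched to samples by name.

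Genes were tested with limma 3.58.1 (R 4.3.3), with trend and robust moderation on log2(TPM + 1), over the 16413 genes with 1 TPM in at least 4 libraries, with two-sided Benjamini-Hochberg adjustment over all of them. Members below the filter had an exact permutation test over 70 assignments. The procedure was tested on simulated data. Alternatives were other pseudocounts and filters, scaling by unweighted trimmed mean factors, quantiles or protein-coding genes, a variance model without trend, a length trend (loess span 0.3), a replicate block, leaving out each library, the sex score, copies summed by name and the deposited comparison.

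Members and lists were chosen with earlier results of these data known. Every member could be named, with full values for the 8 largest rises and falls of each subunit, the stalk, 5S, fusion and divergent members, the 4 most abundant of each subunit and members whose deposited sign differed. Of the other lists, up to 4 genes were named. Some genes are not reported here, though they are counted. Chosen after values had been seen were the summing of copies by sequence (blastn 2.17.0), coding length in place of transcript length with its bins, the run of 8 pyrimidines, the promoter motifs, the sequences printed and the 6 pairs drawn. Lengths and copies came from GENCODE M21, which held 99.6% of the gene IDs and may differ from the authors' annotation. Promoters came from RefSeq (GRCm38.p6).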

Additional observations from a re-analysis of the deposited data

Results flagged for a closer look

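One library stood apart from the other 3 of its group in 11 of 162 groups of member values, where chance gives about 1 in 20. All values are TPM. In iKO, replicate 1 was high for Rpl3l (0.437, others listed at 0), replicate 2 low for Rps23 (67.1, others 74.9 to 76.1) and high for Rplp1 (324.3, others 317.7 to 318.8). Replicate 3 of iKO was high for Rpl34 (143.3, others 131.5 to 133.4) and for Rpl37a (37.7, others 31.4 to 32.2). In WT, replicate 1 was low for Rpl9 (52.3, others 74.5 to 78.4), and replicate 2 was low for Rps27rt (25.5, others 41.4 to 43.5) and Rplp2 (126.6, others 137.1 to 138.4). WT replicate 3 was low for Rps26 (101.8, others 112.8 to 113.0), Rps24 (124.6, others 143.2 to 144.0) and Rpl12 (17.5, others 21.7 to 22.1). Without iKO replicate 3, Rpl37a was called lower (log2 fold change -0.26, limma, adjusted p = 0.0192). Rps23, Rplp1, Rps26, Rplp2 and Rpl34 kept their calls without each of the 8 libraries in turn.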

How the results depend on the processing

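Depth is unknown from TPM, and the groups differ in sex score. With that score as a covariate, 423 genes in all were called instead of 8629, with 1 large subunit member higher and 2 lower and 5 small subunit members higher and 0 lower. Rps4x then turned to -0.085 and Rps18 to 0.76, neither called. The median log2 fold changes of the large and small subunits moved to 0.21 and 0.22 with copies summed by name, to 0.24 and 0.31 with copies summed by sequence, and to 0.21 and 0.26 with trimmed mean factors. Leaving out single libraries gave 0.11 to 0.20 and 0.17 to 0.23. With copies summed by name or sequence, the direction turned to higher for Rpl10 (0.52 in both), Rps6 (0.54 in both), Rpl34 (0.41 in both) and Rps13 (0.47 in both), and by sequence for Fau (0.45). In the authors' deposited table Rpl30 (0.24), Rps27 (0.070) and Rps27l (0.14) had the opposite sign, as did Rpl27 (0.034), Rpl35a (0.10) and Rps13 (0.022), which neither source called. The share of called genes that were higher was 39.3% over all genes, and 51.1% with trimmed mean factors, 49.7% with quantile normalization and 53.6% with the length trend removed. With the replicate number as a block, 8097 genes were called, with 23 large subunit members higher and 12 lower and 20 small subunit members higher and 9 lower. Deviations of same-numbered libraries correlated at -0.04 to 0.00, and not every library correlated best with its own number, so the numbers were not taken as pairs. In every setting other than the sex score, 21 of 24 large and 18 of 18 small subunit members kept the higher call, and 8 of 10 and 5 of 10 the lower call.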
